A study of Komagataella pastoris with 15 samples.

Results

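The comparison set the 3 arrays labelled as the peak of recombinant human serum albumin (rhHSA) expression against the 3 arrays labelled as cells adapted to methanol, 6 of the 15 arrays of a fermentation series in Pichia pastoris, a yeast that grows on methanol and that the labels call Komagataella pastoris. The arrays of each group were taken by their sample titles, not by measured values. The methanol-adapted samples were taken at the end of a methanol-feeding phase from cells that used methanol as their only carbon source, and the peak-labelled samples when the rate of rhHSA expression was highest, per the labels. Both groups came from the same fermentors of 40 L, numbered 1 to 3, so each fermentor gave 1 array to each group. The other phases, used here to place the 2 groups, were growing cells in the logarithmic phase, cells starved of carbon for 40 min when glycerol feeding ended (the glycerol end), and the end of fermentation, when rhHSA had fallen to 220 mg/L. The host strain and the promoter that drove rhHSA are not given in the sources used here. The protocol lists sampling times without tying them to phases, and the hours in the names of the deposited files are not all among them, so no times are used. The labels do not say whether the fermentors were inoculated separately, and p-values measure the spread between these samples.

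In this yeast methanol is oxidised to formaldehyde by alcohol oxidase inside peroxisomes. The formaldehyde is then either fixed into sugar phosphates or oxidised to carbon dioxide for energy. The genes of this pathway are known to be held low on glycerol or glucose and to be strongly induced on methanol, and recombinant proteins are commonly produced from the promoter of an alcohol oxidase gene. Production from such a promoter takes place while the cells are fed methanol. The deposited files name each of the 5039 probes by a locus tag without a gene name, and the reference table used here (5305 rows, of another assembly, ASM170810v1) shares 0 of these tags. With these sources alone the methanol genes could not be picked out, so the label was not checked against them. No table that pairs these tags with gene names was used. Results are given by tag and by groups of tags. Whether labels or files of these arrays were exchanged was not tested, so every value given for the rhHSA peak belongs to arrays with this label.

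The arrays were read in 2 scans. Fermentor 1 of both groups was on scan 1, and fermentors 2 and 3 of both groups were on scan 2, so the groups were balanced over scans. The median processed signal was 14508, 3433 and 7187 on methanol-adapted arrays 1 to 3 and 12653, 2919 and 5882 on peak-labelled arrays 1 to 3. Array 2 was thus the dimmest of each group, and it also had the most flagged spots, 1870 in the methanol-adapted group and 3167 in the peak-labelled group against 256 to 417 on the other 4 arrays. Between 98.7% and 99.96% of probes were well above background on the 6 arrays, and no array had more than 8 saturated spots. Precision is limited by the number of arrays. Signals are given as log2 of the processed signal minus the 75th percentile of the array, so a level is relative to the array's other tags and a change in total RNA would not be seen. As whole cultures were measured, fewer cells with a transcript and less of it per cell cannot be told apart.

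The peak-labelled arrays were close to logarithmic growth and far from methanol adaptation. Peak-labelled array 1 was at least 2-fold apart from the logarithmic growth array of its scan in 5.56% of 5024 tags, from the glycerol-end array in 15.8%, from the methanol-adapted array in 27.5% and from the end of fermentation arrays in 34.2% on average. On scan 2, peak-labelled array 2 was 2-fold apart from logarithmic growth in 5.71% of tags, from the end of glycerol feeding in 18.2% and from methanol adaptation in 29.5%. Peak-labelled array 3 gave 8.70%, 18.6% and 27.4% in the same order. The order was thus the same on each of the 3 arrays, while peak-labelled arrays 2 and 3 were 2-fold apart from each other in 3.43% of tags.

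The methanol-adapted arrays had a different neighbour. They lay nearest to the starved cells of the glycerol end, at 8.14%, 10.8% and 12.1% of tags 2-fold apart for arrays 1 to 3. Their distance to logarithmic growth was 32.1%, 33.5% and 33.7%. Methanol-adapted arrays 2 and 3 differed from each other by 2-fold in 2.69% of tags. Across the same tags the peak-labelled arrays correlated on average at r = 0.974 with logarithmic growth, 0.945 with the end of glycerol feeding and 0.915 with methanol adaptation. With the end of fermentation r was 0.900, from peak-labelled array 1 alone. These values describe 5024 tags that share probe and array, and are no test. The end of fermentation, which follows the rhHSA peak in the labels, was the phase farthest from peak-labelled array 1 and was on scan 1 alone.

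**Figure D1:**
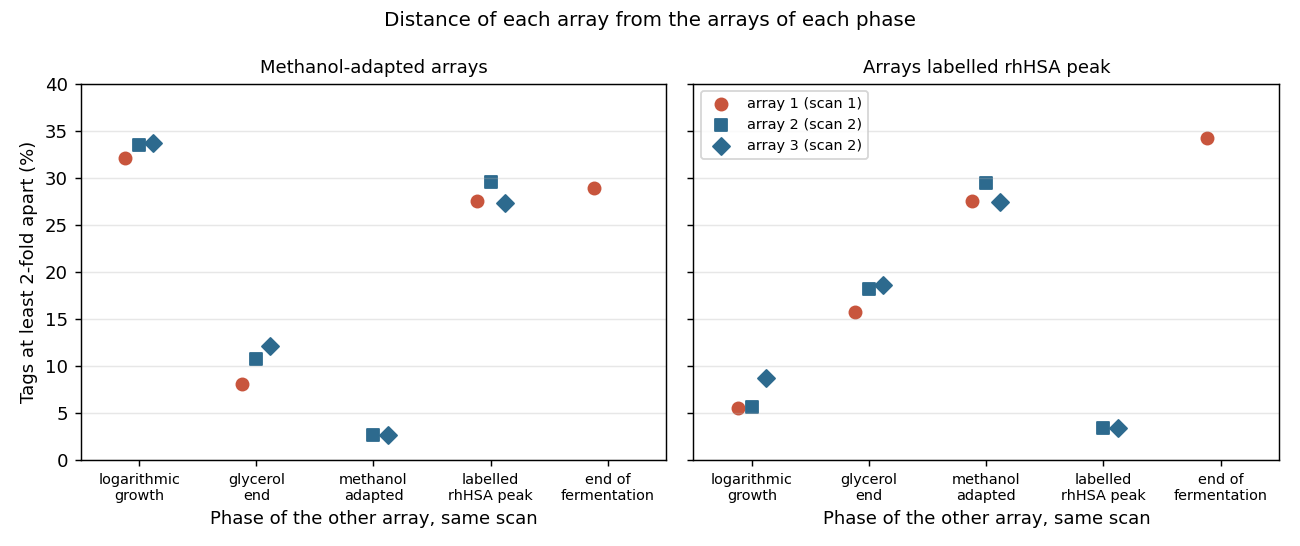
Share of 5024 tags, in percent, with signals at least 2-fold apart between each array of the 2 groups and the arrays of each phase on the same scan (mean over those arrays). Each point is 1 of the 3 arrays of a group. The peak-labelled arrays sit at 5.56% to 8.70% from logarithmic growth and at 27.4% to 29.5% from methanol adaptation.

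Nearly 3 in 4 tags differed between the peak-labelled and the methanol-adapted arrays. With scan as a block, limma called 3700 of 5024 tags (73.6%) at an adjusted p below 0.05, of which 2005 were higher in the peak-labelled arrays (39.9%) and 1695 lower (33.7%). Of these, 764 were higher by at least 2-fold (15.2%) and 539 lower (10.7%). Over tags the standard deviation of the changes was 0.95 on the log2 scale, against a median standard error of 0.098. The middle 90% of tags lay between -1.41 and 1.66, with a median of 0.06. Together these were 1303 tags (25.9%), and 1033 of them had a value on all 6 arrays with no overlap between the groups. Among all 3700 called tags this held for 2119. The tags were called on these same arrays, so the counts without overlap are no further support for the calls. The excess of rises depended on the processing. Quantile normalization gave 1908 tags higher and 1936 lower, and 673 and 628 by 2-fold or more. The values processed by the authors, which cover 3915 tags, gave 1481 higher and 1627 lower with a scan block, and 510 and 518 by 2-fold or more. With another background correction (normexp on the median spot signal, chosen after seeing the data) the median change of all tags moved from 0.06 to 0.21, and at 2-fold or more it gave 906 tags higher and 373 lower.

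At 4-fold or more 123 tags were higher and 87 lower, at 8-fold or more 14 were higher and 20 lower, and at 16-fold or more 1 was higher and 6 lower. The 20 tags that fell by at least 8-fold had levels of -3.13 to 2.33 (median -0.41) in methanol-adapted cells and of -6.31 to -1.28 (median -3.75) in the peak-labelled arrays. Of these, 18 had a value on all 6 arrays and no overlap between the groups. The 14 tags that rose by at least 8-fold had levels of -8.05 to -0.57 (median -3.32) in methanol-adapted cells and of -4.93 to 2.59 (median 0.19) in the peak-labelled arrays, and 8 of them had a value on all 6 arrays and no overlap. A tag that lacked a value on any of the 6 arrays was left out of these counts, whether or not its groups overlapped. Each of these 34 tags changed in the same direction on both scans, and all were well above background on all 6 arrays.

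PAS_chr3_0448 had the largest fall. Its signal was 0.61, 1.87 and 1.27 on methanol-adapted arrays 1 to 3 and -4.40, -3.09 and -3.40 on peak-labelled arrays 1 to 3. Every methanol-adapted array was thus far above every peak-labelled array, and on each scan the gap was of like size, at -5.01 on scan 1 and -4.82 on scan 2. The fitted change was -4.88 ± 0.14 (SE), which is 29.5-fold lower (limma adjusted p = 5.97e-10). The SE and p-value, here and for the tags below, rest on a spread pooled over all 5 phases. On the 6 compared arrays alone, with a scan block, the limma adjusted p was 0.000139. This tag was high in methanol-adapted cells alone. Its mean was 1.25 ± 0.63 (SD, n = 3) there, -3.95 ± 0.82 (SD, n = 2) in logarithmic growth, -4.20 ± 0.76 (SD, n = 3) at the end of glycerol feeding, -3.63 ± 0.68 (SD, n = 3) in the peak-labelled arrays and -5.54 ± 0.080 (SD, n = 3) at the end of fermentation. The SDs include the difference between scans. In the means here and for the tags below, logarithmic growth arrays 2 and 3 were averaged first. Scan 1 thus weighs more in that mean than in those of the other phases that were on both scans. Within each scan the glycerol-end arrays lay below those of logarithmic growth and below the peak-labelled arrays, by 0.54 and 0.68 on scan 1. The end of fermentation was on scan 1 alone, where its 3 arrays, at -5.51, -5.48 and -5.63, lay below the arrays of those 3 phases, at -4.53, -5.08 and -4.40.

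PAS_chr3_0023 had the next largest fall and a different course over the phases. Its signal was 1.51, 2.43 and 1.98 on methanol-adapted arrays 1 to 3 and -3.25, -2.49 and -2.0 on peak-labelled arrays 1 to 3. The groups did not overlap, and the fitted change was -4.55 ± 0.14 (SE), or 23.5-fold lower (limma adjusted p = 5.97e-10). This tag was already high in starved cells, at 2.37 ± 0.39 (SD, n = 3) at the end of glycerol feeding, and it was at 0.80 ± 0.010 (SD, n = 3) at the end of fermentation. The peak-labelled level was -2.58 ± 0.63 (SD, n = 3) and that of logarithmic growth -2.96 ± 0.49 (SD, n = 2), and on each scan the peak-labelled arrays were the higher, with -3.25 against -3.30 on scan 1. The tag was thus high at the glycerol end, in methanol-adapted cells and at the end of fermentation, and low in logarithmic growth and in the peak-labelled arrays.

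PAS_chr1-1_0482 had the largest rise. Its signal was -4.65, -4.90 and -4.03 on methanol-adapted arrays 1 to 3 and -0.33, -0.39 and -0.59 on peak-labelled arrays 1 to 3. The peak-labelled arrays lay close together and far above all methanol-adapted arrays. The fitted change was 4.09 ± 0.18 (SE), or 17.0-fold (limma adjusted p = 5.47e-09). The level of -0.44 ± 0.14 (SD, n = 3) in the peak-labelled arrays was close to that of logarithmic growth, at -0.41 ± 0.18 (SD, n = 2), with the peak-labelled array the higher on scan 1 and both the lower on scan 2, and the tag was low in the other phases, at -3.68 ± 0.080 (SD, n = 3) at the end of glycerol feeding and -4.73 ± 0.030 (SD, n = 3) at the end of fermentation.

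PAS_chr1-3_0134 had the next largest rise. Its signal was -5.44, -6.32 and -5.47 on methanol-adapted arrays 1 to 3 and -1.88, -2.03 and -1.67 on peak-labelled arrays 1 to 3. The fitted change was 3.89 ± 0.20 (SE), or 14.8-fold (limma adjusted p = 4.89e-08), and the groups did not overlap. Each peak-labelled array was also above the logarithmic growth arrays of its scan, which were at -2.30 for scan 1 and -2.82 and -2.80 for scan 2. It was at -3.75 ± 0.18 (SD, n = 3) at the end of glycerol feeding and at -4.46 on each of the 2 end of fermentation arrays that measured it.

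**Figure D2:**
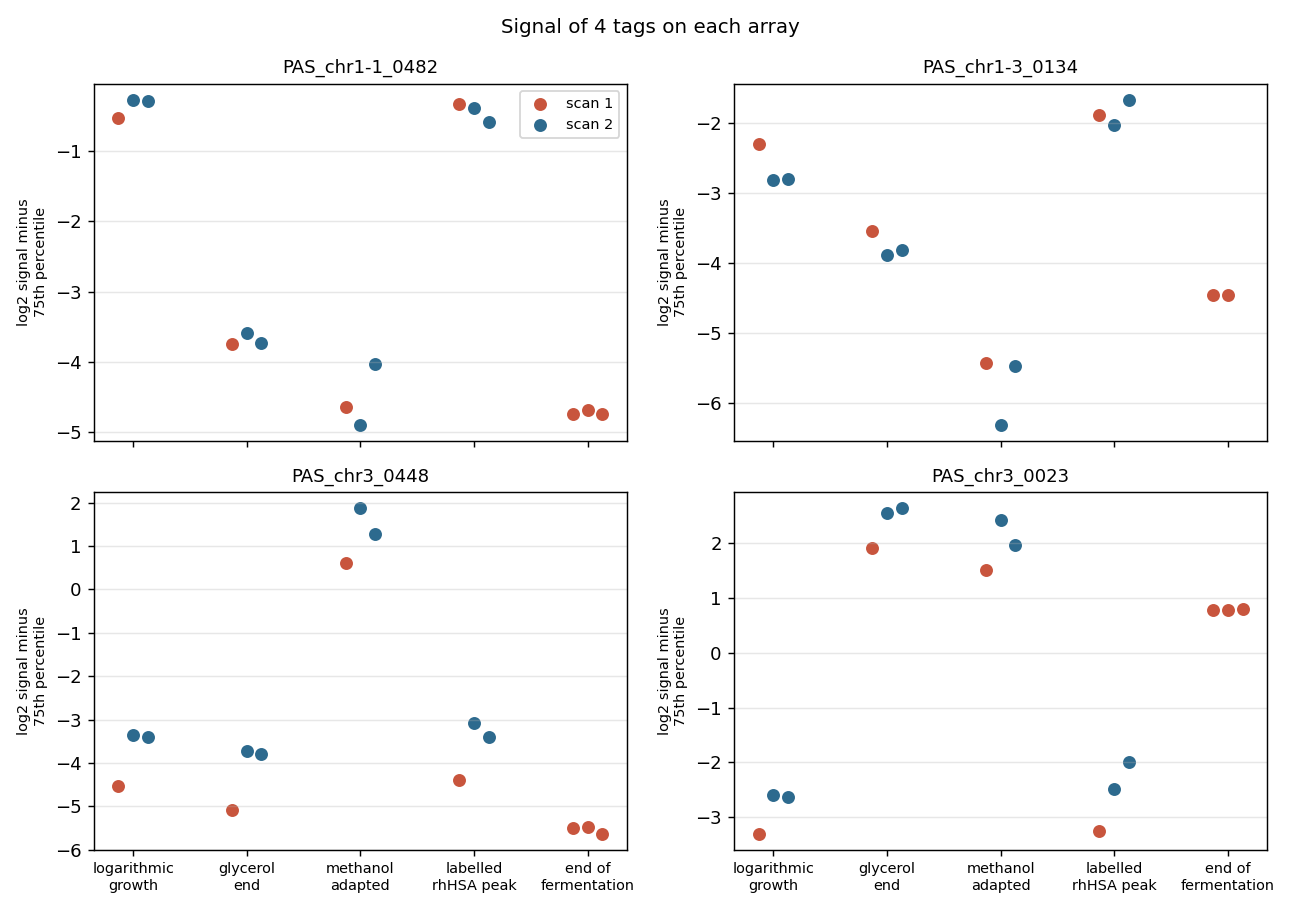
Signal of 4 tags on each array of the 5 phases (log2 of the processed signal minus the 75th percentile of the array), with 1 point per array coloured by scan. PAS_chr3_0448 is high on the 3 methanol-adapted arrays alone, and PAS_chr1-1_0482 is high in logarithmic growth and on the peak-labelled arrays.

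The level of the changed tags was also set against their level in logarithmic growth, near which nearly all tags stood in the peak-labelled arrays, changed or not. For this the phase means were used. In each of the first 4 phases they hold 1 array of scan 1 and 2 arrays of scan 2. A tag that lacked a value on an array was averaged over the other arrays, so its mean was not balanced over scans. Of the 764 tags higher by at least 2-fold in the peak-labelled arrays, 735 (96.2%) lay within 2-fold of their logarithmic growth level, 21 lay below it by more and 8 above it. Of the 539 tags lower by at least 2-fold, 487 (90.4%) lay within 2-fold of logarithmic growth, 51 lay below it by more and 1 above it. Over all 5024 tags the share was 95.2%, with 209 below logarithmic growth by at least 2-fold and 32 above. The median difference between the peak-labelled level and logarithmic growth was -0.01 for the tags that rose and -0.06 for those that fell, against 1.42 and -1.37 from methanol adaptation. No test was made of these shares, because the tags were chosen on the same peak-labelled arrays.

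The level at the end of glycerol feeding divided the changed tags further. Of the 539 tags that fell, 394 (73.1%) had a glycerol-end level nearer to the methanol-adapted level, as in PAS_chr3_0023. The other 145 (26.9%) had a glycerol-end level nearer to the peak-labelled level, as in PAS_chr3_0448. Of the 764 tags that rose, 439 (57.5%) were nearer to the methanol-adapted level at the end of glycerol feeding, as in PAS_chr1-1_0482, and 325 (42.5%) nearer to the peak-labelled level. In logarithmic growth 729 of the 764 tags that rose (95.4%) and 443 of the 539 that fell (82.2%) were nearer to the peak-labelled level. These shares were counted for the changed tags alone, which were chosen on the arrays that set both levels. The same shares over all tags were not counted, and no test was made.

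At the end of fermentation, compared on scan 1, most of these tags stood nearer to the methanol-adapted than to the peak-labelled level. This held for 470 of the 764 that rose (61.5%) and 308 of the 539 that fell (57.1%). Of the tags that rose, 210 were lower at the end of fermentation than on methanol-adapted array 1, and of those that fell, 155 were higher than on it. In the other direction, 90 of the tags that rose were higher at the end of fermentation than on peak-labelled array 1, and 115 of those that fell were lower. On scan 1 the peak-labelled and methanol-adapted groups have 1 array each, so these counts carry the error of single arrays. They too cover the changed tags alone, without the share over all tags, and were not tested.

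**Figure D3:**
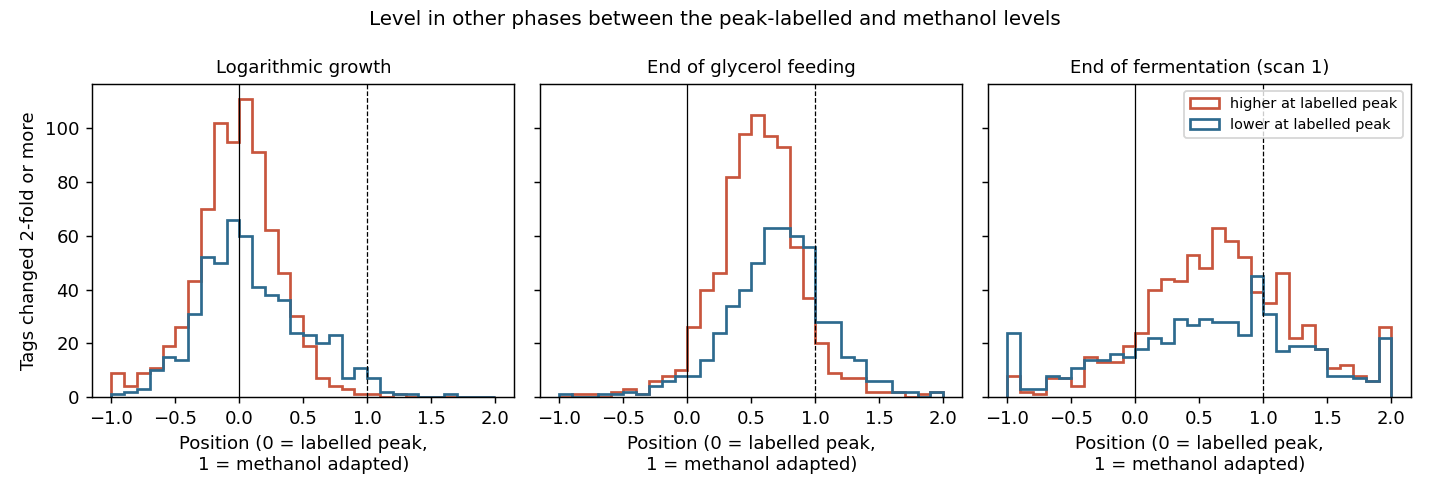
Number of tags changed by at least 2-fold (764 higher and 539 lower in the peak-labelled arrays) by the position of their level in another phase, where 0 is the peak-labelled level and 1 the methanol-adapted level, with values beyond -1 or 2 drawn at the edges. Logarithmic growth is gathered near 0, with medians of -0.01 and 0.05, and the end of glycerol feeding is spread towards 1, with medians of 0.55 and 0.73.

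The larger differences between the groups nearly always had the same direction on both scans. Of 1382 tags at least 2-fold apart between the groups on scan 1, with fermentor 1 alone, 1380 had the same direction on scan 2, with fermentors 2 and 3, and 1142 were at least 2-fold apart there too. A test of the difference between the changes on the 2 scans called 0 of 5019 tags in limma, with 107 at an unadjusted p below 0.05. This test held no fermentor term. Differences between fermentors 2 and 3 that the 2 groups shared (r = 0.819 on scan 2) thus entered its error. That makes calls less likely, so the 0 calls do not show that the changes were alike. Scan and fermentor 1 cannot be told apart in this test, and a tag that was not called is not shown to be the same.

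**Figure D4:**
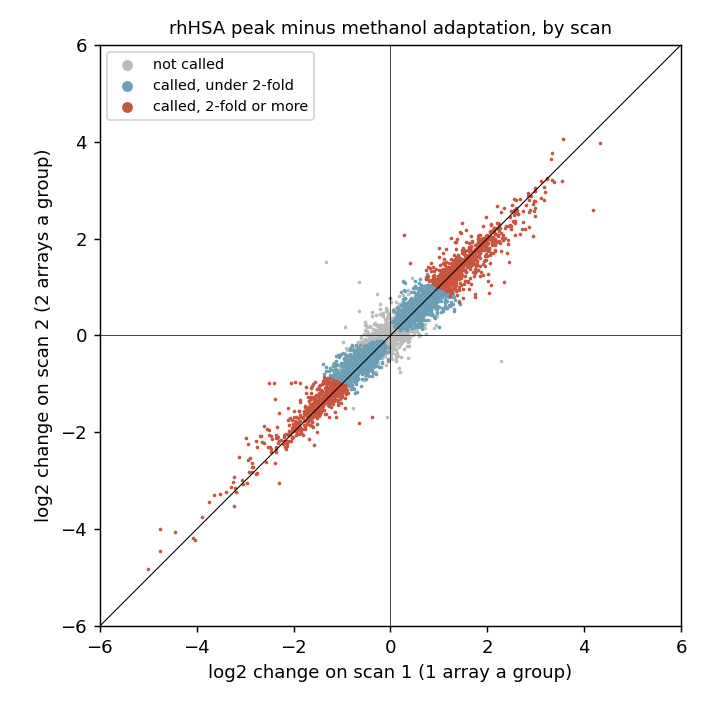
Change of each tag (peak-labelled minus methanol-adapted, log2 units) on scan 1, with 1 array a group, and on scan 2, with 2 arrays a group, coloured by the call of the fit on all arrays. The points follow the line of equal change, with 1380 of 1382 tags that were 2-fold apart on scan 1 in the same direction on scan 2.

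Changes of 2-fold or more were found at all levels of signal. Tags were divided into 4 equal classes by their mean over all arrays. In the class with the lowest signal (-10.02 to -3.07) 31.1% were called at 2-fold or more, with 237 higher and 153 lower. The share was 25.6% and 25.8% in the middle classes and 21.3% in the class with the highest signal (-0.06 to 3.98), where 183 were higher and 84 lower. The median standard error was 0.123 in the lowest class and 0.095 in the highest. Of the 1303 tags called at 2-fold or more, 29 were not well above background on at least 1 of the 6 arrays, and the size of their change is less certain.

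Each group also had tags outside the range of the other phases on the same scan. In the peak-labelled arrays 334 tags were above, and 426 below, every array of the other phases on the same scan, among tags with a value on all of them. In methanol-adapted cells 458 tags were above and 665 below. These counts are out of 5024 tags tested. How many of these had a value on all the arrays was not counted, so no shares are given. The end of fermentation entered the counts only on the scan that held its arrays. For each tag some phase is highest and some phase lowest, so such tags can arise without a difference between phases. The difference between these counts was not tested.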

How the data were processed

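Total RNA was turned into cRNA labelled with Cy3 and hybridised to single-colour arrays, per the labels. The scanner files as deposited give spot intensity, background-subtracted and linear, from Agilent Feature Extraction, version 10.7.3.1 per the file headers and 9.1 per the submitters' processing notes. The authors also deposited log2 values for 3915 probes. Their column medians were 12.57 to 12.69 and their r with the scanner values was 0.983 to 0.988. The scale is thus log2 and rises with the signal, but the centring is unknown. Flags per spot (other values) were used as deposited.

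Log2 processed signals of the scanner files, minus the 75th percentile of each array, were averaged over the 3 spots of a probe without outlier spots, which left 2.26% of values missing. Saturated spots were kept. The 5024 tags tested were those with 2 or more of their 3 spots well above background on each array of any 1 phase. The model, fitted with limma 3.58.1 to all arrays, held the 5 phase means and a scan block (R 4.3.3, jsonlite 2.0.0), with Benjamini-Hochberg adjustment and a threshold of 0.05. The fit was tested on simulated data with a scan difference and independent noise. That simulation held no link between arrays of the same fermentor, so it does not bear on the pairing described below. Arrays 2 and 3 of logarithmic growth agreed within spot noise (2.36% of probes beyond it, against 56.1% and 51.4% for the scan 2 pairs of the methanol-adapted and peak-labelled groups) and were counted as 1 sample, so the fit held 14. The glycerol-end pair (8.00%) and the end of fermentation pairs (6.87% to 9.36%) were also close, but stayed separate samples in the pooled spread. The fit on the 6 arrays of the comparison leaves them out. Python 3.11.15 with matplotlib 3.10.9 drew the figures.

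The labels give the fermentor of each sample, so the numbers pair the samples. Deviations from the group means of arrays of the same fermentor correlated at r = 0.944, 0.917 and 0.831 for fermentors 1 to 3. The scan enters these values, but on scan 2 alone the differences between fermentors 3 and 2 in the 2 groups correlated at r = 0.819. Array 2 was also the dimmer of both pairs, and its part in this was not tested.

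The comparison and the lists were chosen with earlier results of these data known. The rule for named genes took the 10 largest rises and falls and members of gene lists or, where no table pairs tags with names, the 2 largest rises and the 2 largest falls among called tags measured on all 6 arrays whose groups did not overlap on either scan. The second form applied, and the gene lists were not analysed here. Alternatives were the block, the arrays fitted, scaling, background, filter, threshold, array weights, spot flags, leaving out 1 array and the authors' values.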

Additional observations from a re-analysis of the deposited data

How the results depend on the processing

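The 4 named changes kept direction and call in all 90 refits of them that could be made. Without a scan block 2354 tags were called, against 3700 with it, and no other setting moved this count or that of 1303 tags at 2-fold or more by over 1.5 times. With fermentor as a replicate block, in keeping with the pairing by culture, limma called 3179 tags in place of the scan block and 3744 with it, and 4064 on the 6 arrays alone, and this changed no call of a named tag. The 6 arrays with a scan block gave 3070 calls, scan 2 alone 2580, and array weights 4773. In that fit on 6 arrays the limma adjusted p-values of the named tags were larger than in the main fit. They were 0.000139 for both falls, 0.000179 for PAS_chr1-1_0482 and 0.000219 for PAS_chr1-3_0134. Leaving out 1 array gave 3416 to 3758 calls, and 1278 to 1364 at 2-fold or more. Each of the 1303 tags kept its direction in every refit on the scanner files' processed signal that tested it. With normexp on the median signal 1277 did so, and 1214 were still called. The authors' table held 1020 of them, each called in the same direction with and without a scan block. The split of rises and falls moved with quantile normalization, the authors' values and the normexp background, as given beside the counts. Median centring gave 775 tags higher and 525 lower at 2-fold or more, against 764 and 539 in the main fit. The cause of these moves was not tested. The mean r of peak-labelled arrays with logarithmic growth was 0.952 when arrays of both scans were used, against 0.974 on the same scan, and logarithmic growth was the nearest phase there, with quantile normalization (0.973) and in the authors' values (0.970). The normexp correction on mean spot signals was not run, as median signals were used in its place, and the gene lists were not run. The fits with normexp, without the end of fermentation arrays (3536 calls), with the authors' values plus a scan block, and the test between scans were chosen after seeing the data.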

Other observations

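The tags fall into 11 groups by the part of the tag before its number, as the files write it. In the 7 largest groups (289 to 1175 tags) the share called higher in the peak-labelled arrays ran from 37.7% in PAS_chr1-4 to 42.8% in PAS_chr2-1, and the share called lower from 31.2% in PAS_chr2-1 to 36.0% in PAS_chr1-3. At 2-fold or more, 13.8% to 16.9% of these groups were higher and 8.73% to 13.1% lower. All are near the shares over all tags. PAS_FragB, with 69 tags, had 28 higher and 29 lower and a median change of -0.18, and PAS_c131, with 20 tags, had 5 higher and 9 lower and a median of -0.21. PAS_c121, with 18 tags, had 8 higher and 4 lower and a median of 0.15, and PAS_FragD, with 25 tags, had 9 higher and 8 lower and a median of 0.09. The 7 largest groups had medians of 0.02 to 0.11. No difference between groups of tags was tested.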
